A study of Mus musculus with 4 samples.

Results

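10 genes that control the growth of hair follicles were followed across 4 microarrays of mouse skin, out of 19057 genes named on the arrays. They were chosen by gene symbol: the hedgehog pathway genes Shh, Ptch1 and Gli1, the hair matrix transcription factors Lef1, Msx2, Foxn1, Hoxc13, Dlx3 and Gata3, and the growth factor gene Fgf5. The arrays carried 15 probes for these 10 genes, and 7 of the genes had a single probe. The groups were skin of mice deficient in the BLT2 receptor 2 days after skin punching (BLT2KO_punched), wild-type control skin 2 days after punching (WT_punched), unwounded BLT2-deficient skin (BLT2KO) and unwounded wild-type skin (WT), all on the strain background C57Black6/J. BLT2 is a G protein-coupled receptor for lipid mediators, leukotriene B4 among them, that keratinocytes express. Each array held RNA mixed from punch biopsies, 5 mm in diameter, of 3 mice. With 1 pooled array per group, the spread between mice was not measured and no difference below was tested. No probe was named for Ltb4r2, the gene of BLT2, so the deletion itself was not checked here. The labels used here state neither how the gene was deleted nor the age of the mice.

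The hair follicle grows and rests in cycles, and the matrix, a cap of dividing keratinocytes around the dermal papilla at the follicle base, makes the hair during the growth phase, anagen. Sonic hedgehog is secreted by follicle keratinocytes and binds Patched 1, which otherwise restrains the transducer Smoothened. The released signal reaches the GLI transcription factors, and Gli1 and Ptch1 are themselves transcribed in response. In the matrix, LEF1 acts with beta-catenin, and MSX2, FOXN1, HOXC13, DLX3 and GATA3 direct cells into the hair shaft or the inner root sheath that encloses it. FGF5, made in the follicle, ends anagen.

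Of the 10 genes, 6 were detected on at least 1 array and 3 of these, Ptch1, Dlx3 and Gata3, on all 4. A gene was called detected on an array where the detection p-value of its probe was under 0.01, that is, where few of the 936 negative control probes of the array were as bright. By array, 6 of the 10 genes were detected on BLT2KO_punched, 4 on WT_punched, 6 on BLT2KO and 5 on WT. Gli1, Lef1, Msx2 and Foxn1 were not detected on any array, so they have no ratio below. Of several probes for a gene, the one brightest on average was used. Levels are log2 normalized intensities, after removal of background and quantile normalization of the 4 arrays together. The lowest level of any detected probe was 5.10 on BLT2KO_punched, 5.20 on WT_punched, 5.20 on BLT2KO and 5.23 on WT. A probe's level depends on its own binding, so levels are compared between arrays and not between genes.

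**Figure D1:**
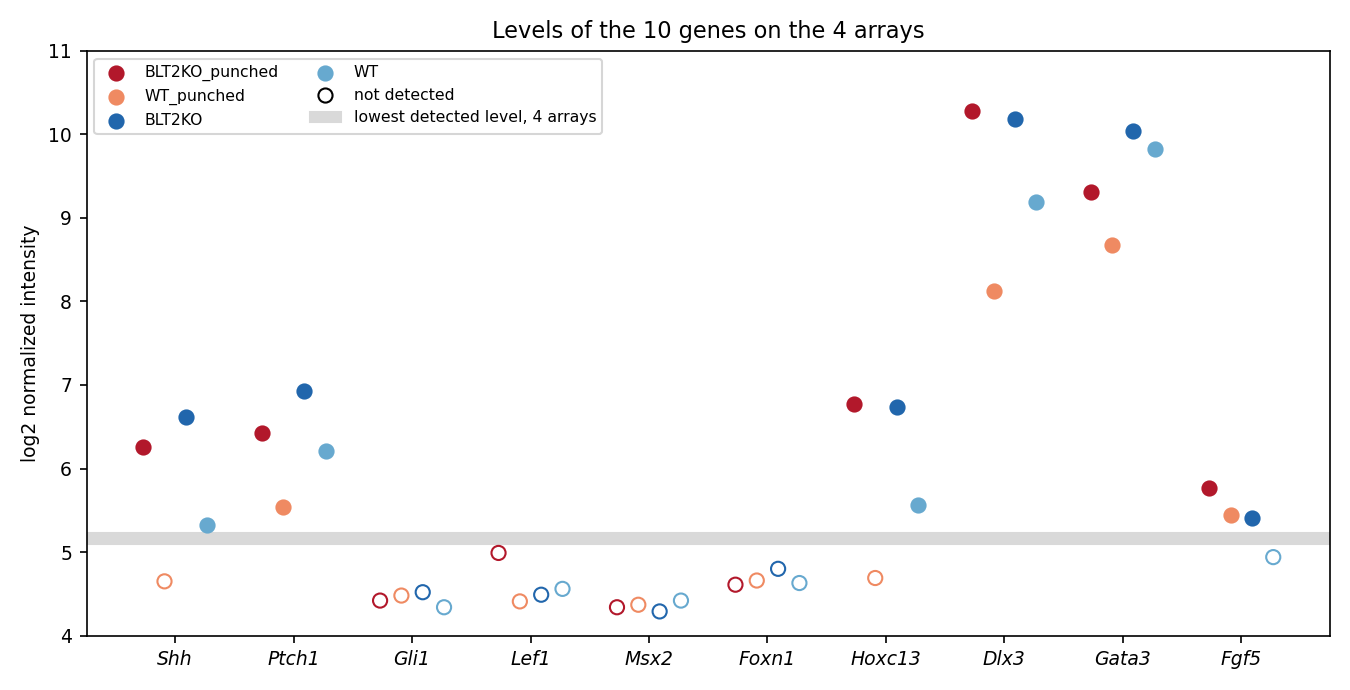
Log2 normalized intensity of each of the 10 genes on the BLT2KO_punched, WT_punched, BLT2KO and WT arrays, each array 1 pool of 3 mice. Filled points were detected and open points were not, and the grey band spans the lowest detected level of the 4 arrays, 5.10 to 5.23. Shh, Ptch1, Hoxc13 and Dlx3 had their lowest point on WT_punched and the points of both BLT2KO arrays above both WT arrays.

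The upstream sequence is shown for the detected members that have an entry in the RefSeq promoter table, to show the sequence just before their start sites. The table held 6 of the 10 genes: Ptch1, Lef1, Msx2, Foxn1, Gata3 and Fgf5. Each stretch is the 250 bases before the start site, on the gene's strand and in build GRCm38.p6, with CG dinucleotides in capitals. Ptch1 lies at chr13:63565736-63565985 on the minus strand, Gata3 at chr2:9878601-9878850 on the minus strand and Fgf5 at chr5:98253934-98254183 on the plus strand.
Ptch1: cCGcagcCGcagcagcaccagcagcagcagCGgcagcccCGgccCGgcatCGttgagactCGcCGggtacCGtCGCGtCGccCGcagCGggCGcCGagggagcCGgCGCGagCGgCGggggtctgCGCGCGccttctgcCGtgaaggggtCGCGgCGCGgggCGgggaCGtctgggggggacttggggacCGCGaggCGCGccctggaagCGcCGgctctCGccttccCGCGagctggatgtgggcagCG
Gata3: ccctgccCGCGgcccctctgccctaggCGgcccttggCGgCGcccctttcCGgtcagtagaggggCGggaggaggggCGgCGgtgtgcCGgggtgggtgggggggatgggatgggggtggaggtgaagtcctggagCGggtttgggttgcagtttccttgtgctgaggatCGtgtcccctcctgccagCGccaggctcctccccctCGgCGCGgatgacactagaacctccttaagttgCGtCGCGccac
Fgf5: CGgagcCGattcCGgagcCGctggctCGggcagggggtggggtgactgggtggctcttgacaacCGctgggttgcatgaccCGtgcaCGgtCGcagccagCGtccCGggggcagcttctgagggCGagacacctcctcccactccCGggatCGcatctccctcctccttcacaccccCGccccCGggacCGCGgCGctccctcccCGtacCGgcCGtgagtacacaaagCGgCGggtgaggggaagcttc
These windows were rich in CG dinucleotides. Ptch1 had 41, Gata3 19 and Fgf5 24, against a median of 6 over all 32851 windows of the table, and their GC content was 78.4%, 70.0% and 70.8%, against a median of 52.4%. The GLI core GACCACCCA, searched on both strands, was in none of the 9 windows of member genes and in 0.225% of all windows. The LEF1 and TCF core CTTTGA was in 13.8% of all windows and, among members, in 1 of the windows of Lef1 alone. The homeodomain core TAATTG (7.17% of all windows) and the GATA core AGATAA (9.99%) were in none of the members' windows. Only these letters in these windows were searched.

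The first question was how the genes differed between BLT2-deficient and wild-type skin, in each wound state. All 6 detected genes had a higher level in BLT2KO than in WT skin and in BLT2KO_punched than in WT_punched skin, and these comparisons share no array. Of the 9782 genes measured in both states, 27.4% were higher in BLT2KO in both. Shh and Hoxc13 in punched skin and Fgf5 in unwounded skin were detected on the BLT2KO side alone and could only come out higher there, so the count of 6 is a description. In whole skin, fewer cells of a type and less RNA per cell cannot be told apart. In unwounded skin, 2 of the 10 genes, Shh and Hoxc13, were at least 2-fold higher and none was 2-fold lower. Over all 10235 genes measured there, 1.08% passed 2-fold upwards and 1.17% downwards, or 2.26% in all. In punched skin, 3 of the 10, Shh, Hoxc13 and Dlx3, were at least 2-fold higher and none was 2-fold lower, against 1.08% higher and 0.541% lower of 10540 genes, or 1.62% in all. A gene detected on 1 array of a pair can only differ towards that array, and its ratio is given as a bound against the lowest detected level.

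Shh, the secreted ligand, had a level of 6.26 on BLT2KO_punched, 4.65 and not detected on WT_punched, 6.62 on BLT2KO and 5.33 on WT. In scanner intensities before any correction, these were 156.9, 99.6, 143.6 and 86.9. On both BLT2KO arrays the probe was brighter than every negative control, on WT 5 of the 936 controls were as bright, and on WT_punched 157 were. The level was thus dim but above background on both BLT2KO arrays, near the lowest detected level on WT and within the background on WT_punched. Shh was 2.44-fold higher in BLT2KO than in WT skin (log2 ratio 1.29), and at least 2.08-fold higher in BLT2KO_punched than in WT_punched skin. A second probe of Shh was not detected on any array, with levels of 4.45, 4.30, 4.61 and 4.43 in the same order, so the Shh values rest on 1 probe.

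Ptch1, which encodes the receptor of sonic hedgehog and is one of the pathway's own targets, had levels of 6.42 on BLT2KO_punched, 5.54 on WT_punched, 6.93 on BLT2KO and 6.21 on WT. No negative control was as bright on any array. Ptch1 was 1.64-fold higher in BLT2KO than in WT skin (log2 ratio 0.71), a size that 2.07% of all genes reached, and 1.84-fold higher in BLT2KO_punched than in WT_punched skin (0.88), which 1.34% reached. Both BLT2KO arrays were above both WT arrays, with BLT2KO_punched only a little above WT. A second probe of Ptch1 was detected on BLT2KO_punched alone, at 5.14, against 4.33 on WT_punched, 4.62 on BLT2KO and 4.78 on WT. It was therefore lower on BLT2KO than on WT, where neither value was above the detection threshold.

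Gli1, the third hedgehog gene and an activator that the pathway induces, stayed at background, with levels of 4.42 on BLT2KO_punched, 4.48 on WT_punched, 4.52 on BLT2KO and 4.34 on WT. On each array at least 263 of the 936 negative controls were as bright as its probe. A change of Gli1 was not detectable at this signal, which does not show that the gene was silent.

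Hoxc13, a homeobox factor of the matrix, cortex and cuticle that binds hair keratin promoters, had levels of 6.77 on BLT2KO_punched, 4.69 and not detected on WT_punched, 6.74 on BLT2KO and 5.56 on WT. The BLT2KO arrays were level with each other and above both WT arrays. Hoxc13 was 2.26-fold higher in BLT2KO than in WT skin (log2 ratio 1.18) and at least 2.95-fold higher in BLT2KO_punched than in WT_punched skin. Sizes this far up were reached by 0.872% and 0.734% of all genes.

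Dlx3, a homeobox factor of the matrix and of the differentiating epidermis and follicle, was far above background on all arrays, with intensities of 1472.2 on BLT2KO_punched, 371.8 on WT_punched, 1160.8 on BLT2KO and 535.2 on WT. Its levels were 10.28, 8.12, 10.18 and 9.19 in that order. Dlx3 was 4.44-fold higher in BLT2KO_punched than in WT_punched skin (log2 ratio 2.15), the largest ratio measured on both arrays among the 10 genes, and 0.569% of all genes had one as far up. In unwounded skin it was 1.99-fold higher in BLT2KO (log2 ratio 0.99), just under the 2-fold threshold, and Shh at 1.29 and Hoxc13 at 1.18 lay just above it.

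Gata3, a zinc finger factor needed for the inner root sheath and also a factor of T helper and innate lymphoid cells, had levels of 9.31 on BLT2KO_punched, 8.68 on WT_punched, 10.04 on BLT2KO and 9.82 on WT. The unwounded arrays were both above the punched arrays, so Gata3 followed wound state more than genotype. It was 1.17-fold higher in BLT2KO than in WT skin (log2 ratio 0.22) and 1.55-fold higher in BLT2KO_punched than in WT_punched skin (0.63). The first of these was reached by 18.8% of all genes. Of 14 T cell and innate lymphoid markers on the arrays, 8 were detected on at least 1. Their summed linear levels were 4762 on BLT2KO_punched, 4555 on WT_punched, 4419 on BLT2KO and 4386 on WT. Cd4, Cd8a, Cd5, Cd28, Icos and Il2ra were not detected on any array. Most of that sum was Thy1, which is also a fibroblast marker. Without it the other 7 summed to 1034 on BLT2KO_punched, 908 on WT_punched, 1579 on BLT2KO and 1249 on WT. That is the order of arrays seen for Gata3. Rora, the brightest of the 7, made up the largest part of the sum without Thy1 on every array, so that order leans on Rora. Its levels were 8.99, 8.84, 10.07 and 9.62 on the same arrays. Cd3e also had the order of Gata3. Cd3g was instead highest on BLT2KO_punched, Cd3d on WT and Il7r on WT_punched, so the markers did not share 1 order. The part of lymphoid cells in the Gata3 values was not tested.

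Fgf5, whose loss gives mice the long angora coat, was dim, with levels of 5.77 on BLT2KO_punched, 5.44 on WT_punched, 5.41 on BLT2KO and 4.94, not detected, on WT. It was at least 1.14-fold higher in BLT2KO than in WT skin and 1.25-fold higher in BLT2KO_punched than in WT_punched skin (log2 ratio 0.32). Its order differed from that of the other detected genes: the punched array was the higher one in both genotypes.

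Lef1, Msx2 and Foxn1 had levels within the background on every array. Lef1 had 4 probes, with levels between 4.27 and 4.99. Its brightest value, on BLT2KO_punched, was matched by 28 of the 936 negative controls. Msx2, a homeobox gene that acts upstream of Foxn1 in the hair shaft, lay between 4.29 and 4.42. Foxn1, the gene mutated in nude mice, lay between 4.61 and 4.80, with its highest value on BLT2KO, where 49 negative controls were as bright. For these genes the arrays give no usable comparison.

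The error that these arrays can show is technical. The SD of a single probe's log2 ratio was estimated from pairs of probes for the same gene. It is smaller than the SD of the difference within a pair. For BLT2KO against WT it was 0.26 where both probes were at levels of 5 to 7, as Shh, Ptch1 and Hoxc13 were (712 genes). At levels of 8 to 11, as Dlx3 and Gata3 were, it was 0.16 (735 genes). For BLT2KO_punched against WT_punched the SDs were 0.23 and 0.12. These SDs come from probes detected on both arrays. The genotype ratios of Dlx3 and of the Ptch1 probe used were larger than the SDs in both states, and those of Shh and Hoxc13 were in unwounded skin. The bounds of Shh and Hoxc13 in punched skin and of Fgf5 in unwounded skin rest on an undetected level, which the SDs do not cover. The bound of Fgf5 was also smaller than the SD. In unwounded skin the second probes of Shh and Ptch1 were not detected, so the SD leaves out how far they disagreed with the probes used. Probes of 1 gene share the same pools, labelling and hybridisation, so the SD also leaves out the spread between mice. The 2-fold counts depended on the processing. Without background correction, or in the deposited processed values, none of the 10 genes was 2-fold apart in unwounded skin and 1, Dlx3, was in punched skin, and with an offset of 50 none was in unwounded skin. Over all 8 other settings the log2 ratio of BLT2KO against WT ranged from 0.58 to 1.31 for Shh, from 0.56 to 1.21 for Hoxc13, from 0.90 to 1.18 for Dlx3 and from 0.27 to 0.79 for Ptch1. The 0.27 was the mean of both Ptch1 probes and is about the probe SD. In punched skin the ratio ranged from 0.15 to 1.62 for Shh, from 0.70 to 2.08 for Hoxc13 and from 1.89 to 2.24 for Dlx3. With an offset of 50 Shh was at 0.65, and with the mean of both its probes at 0.15, so it was not 2-fold higher in punched skin under either.

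**Figure D2:**
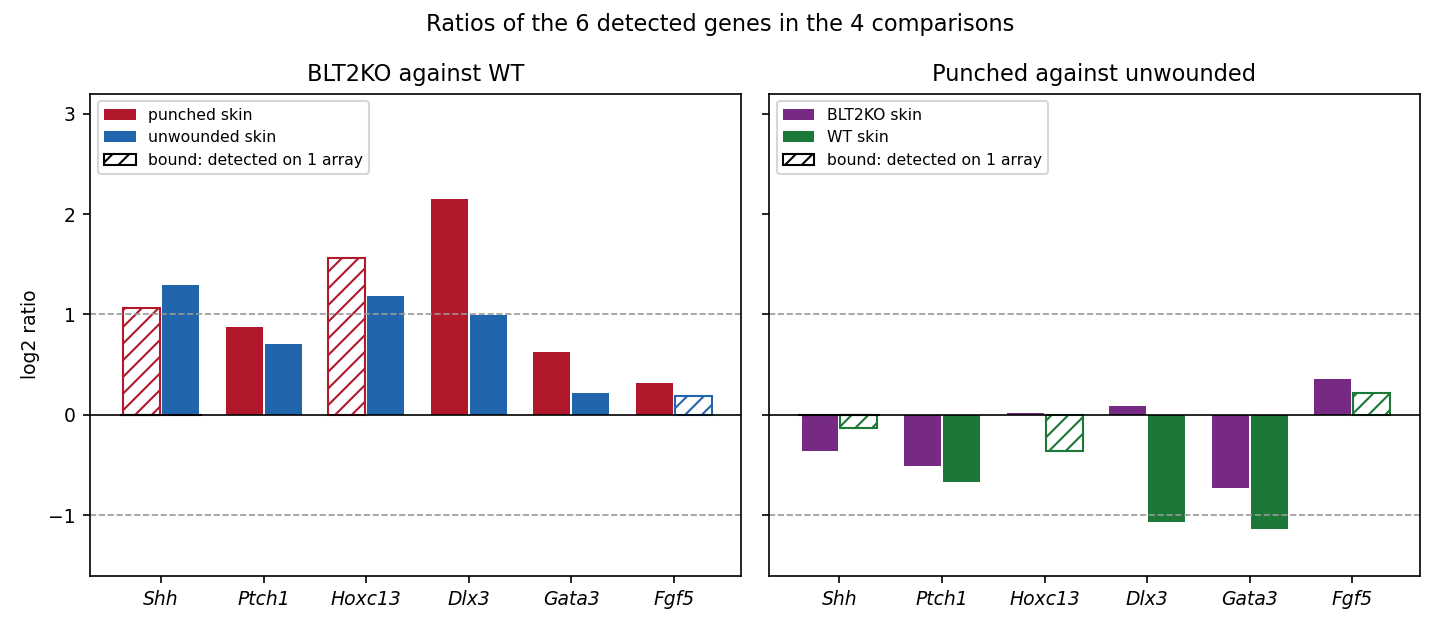
Log2 ratios of the 6 detected genes, with BLT2KO against WT on the left (punched and unwounded skin) and punched against unwounded on the right (BLT2KO and WT skin). Hatched bars are bounds for genes detected on only 1 array of the pair, dashed lines mark 2-fold, and each bar compares 2 arrays, so there is no replicate error. All genotype ratios were above 0 and reached 2.15 for Dlx3, and the lowest wound ratio was -1.14, for Gata3 in WT skin.

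The second question was how the genes differed with punching in each genotype. In BLT2KO skin none of the 10 genes was 2-fold apart between BLT2KO_punched and BLT2KO, where 3.10% of 10587 genes passed 2-fold upwards and 1.71% downwards, or 4.81% in all. In WT skin, Dlx3 and Gata3 were at least 2-fold lower in WT_punched than in WT, and none of the 10 was 2-fold higher, against 1.48% lower and 1.94% higher of 10382 genes, or 3.42% in all. Gata3 was lower with punching in both genotypes, with log2 ratios of -0.73 in BLT2KO and -1.14 in WT skin, or 1.66-fold and 2.20-fold. Ptch1 was also lower in both, with log2 ratios of -0.51 in BLT2KO and -0.67 in WT skin, but with the mean of both its probes the BLT2KO ratio was 0.01. Shh was 1.28-fold lower in BLT2KO_punched than in BLT2KO skin, and at least 1.09-fold lower in WT_punched than in WT skin. Fgf5 was 1.28-fold higher in BLT2KO_punched than in BLT2KO skin, and at least 1.16-fold higher in WT_punched than in WT skin. The punched arrays had a higher background, with a median intensity of undetected probes of 89.3 on BLT2KO_punched and 93.3 on WT_punched, against 63.9 on BLT2KO and 65.1 on WT, so wounding and array background cannot be told apart for dim genes.

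Among the members detected on all 4 arrays, Dlx3 had the largest difference between the genotypes in its wound ratio. Its log2 ratio with punching was 0.09 in BLT2KO skin and -1.07 in WT skin, a difference of 1.16, or 2.24-fold. Among 9111 genes detected on all 4 arrays, the wound ratio of BLT2KO skin exceeded that of WT skin by 2-fold or more for 1.17%, and the reverse held for 0.571%. Hoxc13 had a log2 ratio of 0.02 in BLT2KO skin, and was at least 1.28-fold lower in WT_punched than in WT skin. The differences for the other genes detected on all 4 arrays were 0.16 for Ptch1 and 0.41 for Gata3. That of Ptch1 ranged from 0.00 to 0.57 over the other settings, with the highest value for the mean of both probes. With 1 array per group, a difference between wound ratios cannot be told apart from a difference between the pools. At levels of 8 to 11 the probe SD was 0.19 for BLT2KO_punched against BLT2KO and 0.21 for WT_punched against WT. Under median scaling, which shifted all genes by 0.25 for WT_punched against WT, Dlx3 and Gata3 stood at -0.76 and -0.83 and neither was 2-fold lower. Relative to that shift they were at -1.01 and -1.08.

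The genes that make up the hair followed the same order of arrays with larger ratios. Of 25 hair shaft and inner root sheath structural genes on the arrays, 22 were measured in unwounded skin and 20 were at least 2-fold higher in BLT2KO than in WT skin (median log2 ratio 2.66, against -0.01 over all genes). In punched skin 23 were measured and 19 were at least 2-fold higher in BLT2KO_punched than in WT_punched (median 4.87, against -0.03). In each of these comparisons 1.08% of all genes were at least 2-fold higher. Krt33a, a hair shaft keratin, had levels of 11.99 on BLT2KO_punched, 6.19 on WT_punched, 12.16 on BLT2KO and 7.61 on WT. Krtap6-2, a keratin-associated protein gene, had 11.35, 5.52, 12.03 and 6.45 in that order. Both were thus high on both BLT2KO arrays alone. With punching in WT skin, 16 of the 20 structural genes measured were at least 2-fold lower (median log2 ratio -1.76), against 1.48% of all genes. In BLT2KO skin none of the 23 measured was 2-fold apart (median -0.08). A lower level with punching in WT skin alone was thus not particular to Dlx3. The summed linear levels of the list were 81645 on BLT2KO_punched, 2475 on WT_punched, 86042 on BLT2KO and 10860 on WT. Shh, Hoxc13 and Dlx3 shared with them the lowest level on WT_punched, the next on WT and higher levels, near each other, on both BLT2KO arrays. For Shh and Hoxc13 the step from WT to WT_punched rests on an undetected level, with bounds of -0.13 and -0.36 on the log2 scale. With 1 pool per group, genotype cannot be told apart from a difference in hair growth between the pools.

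**Figure D3:**
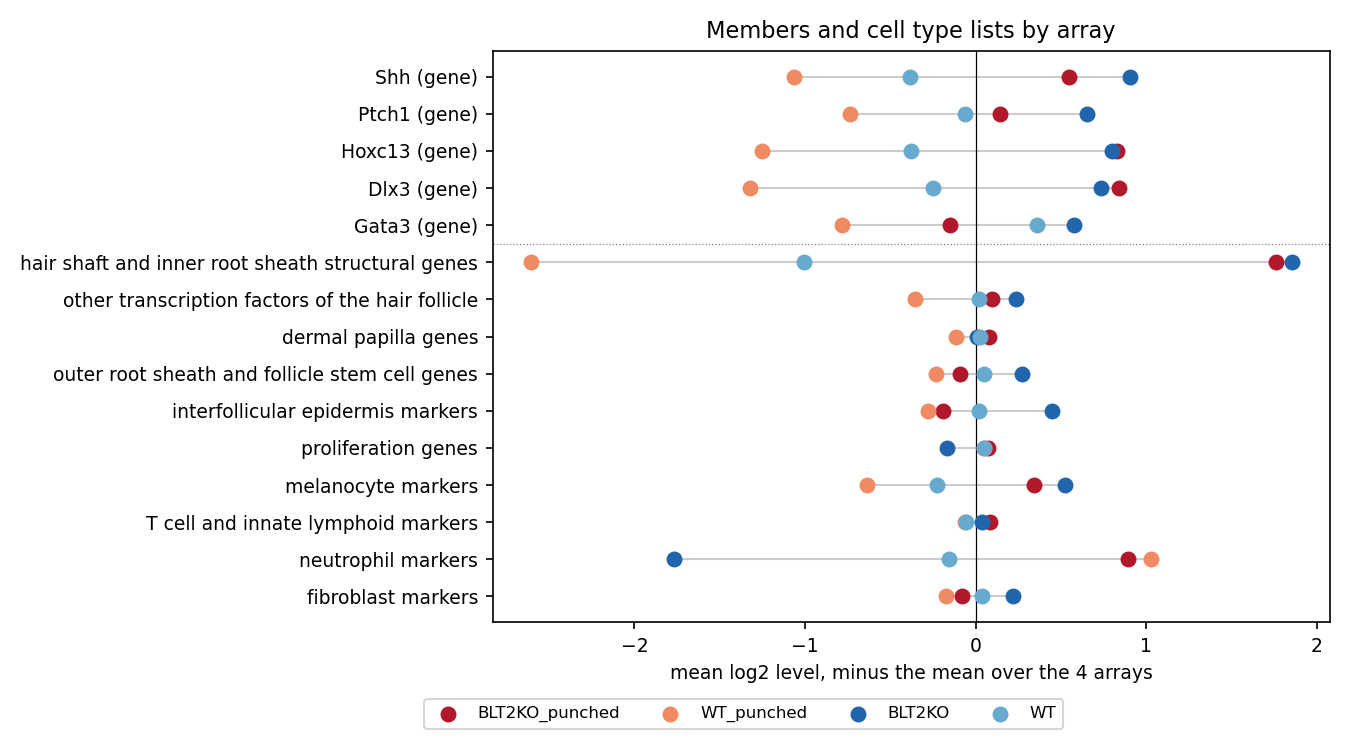
For each of the 5 genes whose level spanned at least 1 log2 unit, and for 10 gene lists (mean over the members detected on any array), the log2 level on each array minus the mean over the 4 arrays. The WT_punched point was lowest for all 5 genes and for every list shown except proliferation genes and neutrophil markers, which were lowest on BLT2KO. The hair structural genes spanned the widest range shown. The proliferation and lymphoid lists varied little.

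Markers of other cells were set beside the members. Markers of melanocytes, the pigment cells of the growing hair bulb, had summed levels of 2691 on BLT2KO_punched, 983 on WT_punched, 3156 on BLT2KO and 1512 on WT, with 8 of 9 detected on at least 1 array and Tyr, which encodes tyrosinase, on none. Interfollicular epidermis markers, which define the tissue as skin, summed to 89885, 92500, 111516 and 97747 in the same order, with 12, 11, 13 and 11 of 13 detected. Proliferation genes had 20 of 25 members detected and summed to 10518, 10861, 8588 and 9969, lowest on BLT2KO where Shh was highest. Neutrophil markers summed to 25859, 28791, 5728 and 15890. Skeletal muscle markers summed to 93835, 104759, 102675 and 108328, but 4 of the 19 measured were at least 2-fold lower in BLT2KO_punched than in WT_punched skin, the comparison in which Dlx3 was 4.44-fold apart. These were Tnnc1, Tnnt1, Myl2 and Myl3, contractile genes of slow muscle, chosen after their values were seen. Of all genes, 0.541% were at least 2-fold lower in that comparison. Tnnc1 had levels of 7.66 on BLT2KO_punched, 10.68 on WT_punched, 6.10 on BLT2KO and 6.17 on WT. Myl3 was at 10.13 on WT_punched and not detected on the other arrays. WT_punched thus stood apart in these genes. The part of each of these cell types in the members' values was not tested.

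Within the hedgehog pathway, the genes around the members differed little. Of 8 genes for hedgehog ligands and their release, 5 were measured in BLT2KO against WT and none was 2-fold apart (median -0.02, against -0.01 over all genes). Dhh, another hedgehog ligand, was 1.41-fold lower in BLT2KO (log2 ratio -0.50), the opposite direction to Shh, and Scube2, which helps release the ligand, was at least 1.57-fold higher. Of 18 receptors, co-receptors and transducers, 12 were measured and none was 2-fold apart in any of the 4 comparisons, with medians from -0.01 to 0.09. Among them Gli2, the main activator of the pathway in skin, was 1.47-fold higher in BLT2KO than in WT skin and 1.43-fold higher in BLT2KO_punched than in WT_punched skin. Gli3, the repressor-forming relative, was higher by 0.32 and 0.26 on the log2 scale. The 9 cilium genes on the arrays, needed because the pathway runs through the primary cilium, had medians of 0.09 in unwounded and -0.04 in punched skin for BLT2KO against WT, with none 2-fold apart. Hhip, a decoy receptor and common readout of the pathway, was not detected on any array.

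Of 14 genes listed as responding to hedgehog signals, 7 were measured. The list includes the co-receptor genes Cdon, Boc and Gas1, which the pathway is known to repress, and of these Cdon was measured. In each genotype comparison 6 of the 7 were above 0, and 5 were in both, Cdon among them (log2 ratios 0.10 and 0.06). Of all genes, 47.6% were above 0 in unwounded and 44.3% in punched skin. The list medians were 0.32 in unwounded and 0.41 in punched skin, but with no filter or floor, which brings in the undetected genes, they were 0.01 and 0.04. Foxe1, a forkhead factor of the follicle, was the 1 gene past 2-fold. It was 2.94-fold higher in BLT2KO than in WT skin and at least 4.77-fold higher in BLT2KO_punched than in WT_punched skin, with levels of 7.46 on BLT2KO_punched, 4.82 and not detected on WT_punched, 6.97 on BLT2KO and 5.41 on WT. This is the order of arrays seen for Hoxc13. Ccnd2, a cyclin of the cell cycle, was 1.88-fold higher in BLT2KO than in WT skin and 1.33-fold higher in BLT2KO_punched than in WT_punched skin. Sox9, a factor of the outer root sheath and stem cells, was 1.44-fold and 1.58-fold higher in the same comparisons.

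Other transcription factors of the follicle showed a mixed picture. Of 37 on the arrays, 26 were measured in BLT2KO against WT and 2, Foxe1 and Foxq1, were at least 2-fold higher (median 0.20). In punched skin 23 were measured, and Foxe1 and Msx1 were at least 2-fold higher in BLT2KO_punched than in WT_punched (median 0.50). In each of these comparisons 1.08% of all genes were at least 2-fold higher. Of the 23 measured in both states, 14 (60.9%) were above 0 in both, against 27.4% of all 9782 genes measured in both. Foxq1, mutated in satin mice, was 2.08-fold higher in BLT2KO than in WT skin and 1.81-fold higher in BLT2KO_punched than in WT_punched skin. Sox21, a factor of the hair shaft cuticle, was 1.61-fold and 1.72-fold higher. Msx1, the close relative of Msx2, had levels of 7.40 on BLT2KO_punched, 6.08 on WT_punched, 7.20 on BLT2KO and 6.94 on WT, and it is named after its values were seen. The Dlx relatives Dlx1, Dlx2, Dlx4, Dlx5 and Dlx6, and Hoxc12 and Hoxc11, were not detected on any array.

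**Figure D4:**
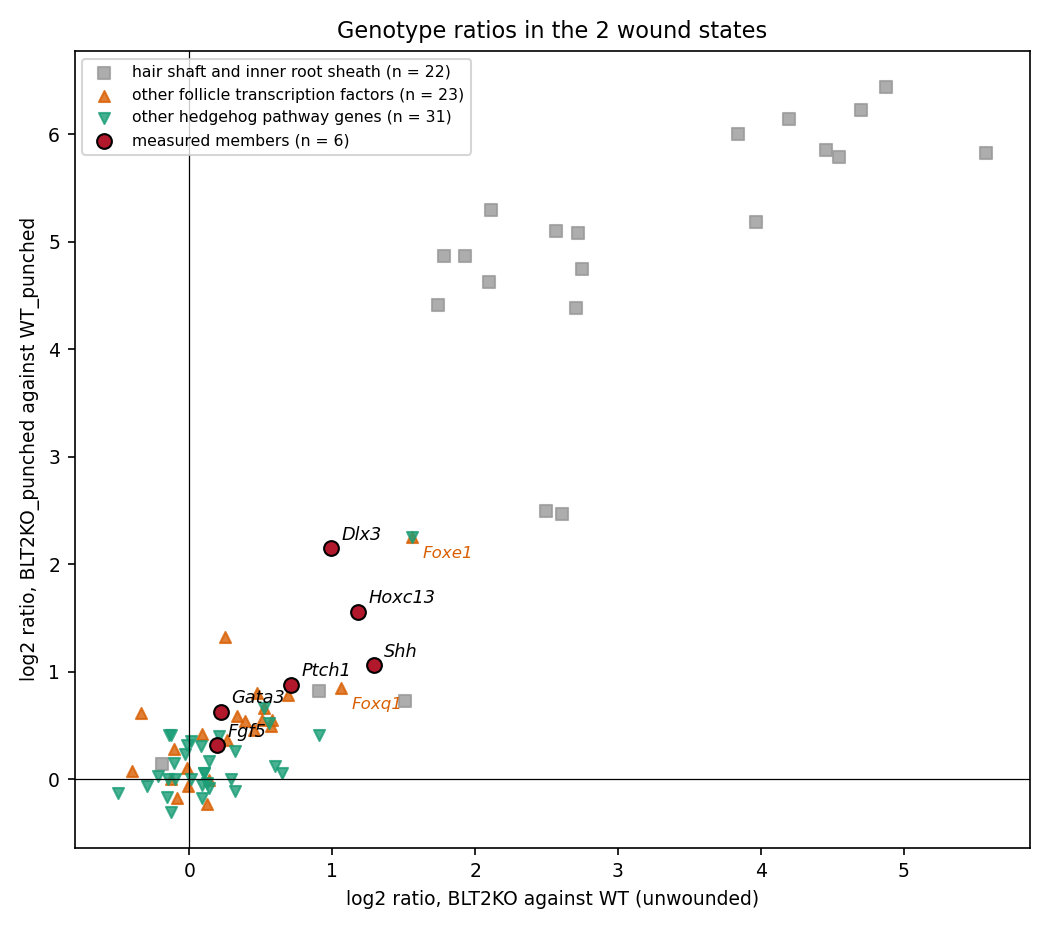
Log2 ratio of BLT2KO against WT (x axis) and of BLT2KO_punched against WT_punched (y axis) for the 6 measured members, other hedgehog pathway genes, other follicle transcription factors and hair structural genes, bounds included and each point 1 gene. Foxe1 is drawn in both the hedgehog and the transcription factor set. The members lay between 0.19 and 1.29 on the x axis and 0.32 and 2.15 on the y axis, below most hair structural genes, and most hedgehog pathway genes lay near 0.

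The partners of LEF1 were measured although Lef1 was not. Of 15 LEF1 partners and close relatives, 14 were measured in unwounded skin and none was 2-fold apart between BLT2KO and WT (median 0.13). Nkd1, an inhibitor that WNT signals induce, was 0.70 higher in BLT2KO than in WT skin and 0.56 higher in BLT2KO_punched than in WT_punched skin on the log2 scale. Sp5, another target of WNT signals, was 0.50 higher in BLT2KO than in WT skin, but was lower in BLT2KO_punched than in WT_punched skin (log2 ratio -0.29).

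Among FGF receptors and other FGFs of skin, 11 of 15 were measured in unwounded skin and 1, Fgf22, was 2-fold higher in BLT2KO (2.18-fold, and 1.73-fold in punched skin). Fgf18, a signal of the resting follicle, had levels of 5.16 on BLT2KO_punched, 5.60 on WT_punched, 5.48 on BLT2KO and 5.05, not detected, on WT. Like Fgf5 it was higher in BLT2KO than in WT and in WT_punched than in WT skin, each as a bound, and unlike Fgf5 it was lower in the other 2 comparisons. The dermal papilla list had 14 measured genes in unwounded skin with a median of 0.11. Corin, a protease of the papilla, was detected on both BLT2KO arrays and on neither WT array, and was at least 1.93-fold higher in BLT2KO than in WT skin and at least 2.77-fold higher in BLT2KO_punched than in WT_punched skin. Bmp4, a papilla signal, was 1.77-fold and 1.80-fold higher. Crabp1, Inhba and Sox18, in contrast, were lower in BLT2KO than in WT skin, with log2 ratios of -1.37, -0.76 and -0.40. Crabp1 was the 1 papilla gene past 2-fold in that comparison. In punched skin the ratios of these genes were -0.40, -0.20 and 0.08. In the outer root sheath and stem cell list, 1 of 17 measured genes was 2-fold higher in unwounded BLT2KO skin, the companion layer keratin Krt75 (2.08-fold, and 1.99-fold in punched skin), with a list median of 0.18.

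The members were compared with each other and with 10654 detected genes by the root mean square difference of their log2 levels over the 4 arrays, each profile centred on its own mean. Distances that rest on an undetected level depend on how that level is set, and were computed as normalized and with undetected levels raised to the lowest detected one, an alternative chosen after the data were seen. Hoxc13 and Dlx3 were 0.08 apart as normalized and 0.27 apart with the raised level of Hoxc13 on WT_punched. Shh and Hoxc13 were 0.17 and 0.19 apart, and Shh and Dlx3 0.22 and 0.42. Ptch1 and Gata3, detected on all 4 arrays, were 0.26 apart, and Fgf5 was at least 0.51 from every other member either way. The genes nearest to Ptch1 were Sox21, Rnase1 and Dnase1l2 in both settings, at 0.038 to 0.040. Dclk3 (0.13) and the keratin Krt90 (0.15) were among the 3 nearest to Dlx3 in both, and Pex7 (0.051) among the 3 nearest to Gata3. For Shh, Hoxc13 and Fgf5 none of the 3 nearest genes was shared between the settings, so none is named. These 4 points share the same pools and hybridisations, so likeness over them is a description of 4 arrays.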

How the data were processed

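RNA of whole skin was measured on 4 Illumina MouseWG-6 arrays, 1 per group, each a pool of 3 mice. The deposited table gives non-normalized probe intensities on a linear scale and, per the file headers, a detection p-value for each probe and array. A second deposited table of processed intensities equalled the first times 1 constant per array (0.950 to 1.24). The constants gave each array the same mean intensity, 348.0, and no label states how they were chosen. From the non-normalized table, neqc of limma 3.58.1 (R 4.3.3) removed background using the detection p-values, added an offset of 16 and quantile normalized the arrays, and log2 was taken. Of 45281 probes, 34885 had 1 gene in the platform annotation, 18 several and 10378 none listed, and 34807 gene IDs matched the RefSeq table of GRCm38.p6. Probes detected were 36.2% to 38.0% of each array. The probe with the highest mean stood for its gene. A gene entered a comparison where its detection p-value was under 0.01 on at least 1 of the 2 arrays, and the undetected side was set no lower than the array's lowest detected level. Calls were ratios of at least 2-fold. With 1 array per group no test was made, and the number of arrays limits the precision. The normalization and ratios were tested on simulated data in which only probes well above background were changed. That test therefore does not cover ratios of dim genes such as Shh, Ptch1, Hoxc13 and Fgf5. Tables and figures used Python 3.11.15, numpy 2.4.6, pandas 2.3.3 and matplotlib 3.10.9.

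The members and the 21 gene lists were chosen with earlier results of these data known. All 10 members are named, with up to 5 genes per list, those with the largest absolute log2 ratio in BLT2KO against WT, and, of the 3 genes most like each detected member, those shared by both settings. Genes named outside this rule, including those named as not detected, were chosen after their values were seen. Alternatives were no background correction, median scaling, the deposited processed values, an offset of 50, the mean of all probes, a detection threshold of 0.05, no filter or floor, normalizing only the 2 arrays compared, raising undetected levels in the likeness of profiles, and the lymphoid sum without Thy1, the last 3 chosen after seeing the data.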

Additional observations from a re-analysis of the deposited data

Results flagged for a closer look

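Dlx3 was lower with punching in WT skin and nearly unchanged in BLT2KO skin. Its log2 ratio was 0.09 for BLT2KO_punched against BLT2KO and -1.07 for WT_punched against WT, a difference of 1.16. The 0.09 was smaller than the probe SD of 0.19 for that comparison at levels of 8 to 11, so its sign is not read. Each ratio compares 1 pool with 1 other, and the difference was not tested.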

How the results depend on the processing

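Member ratios kept their sign in 188 of 189 values over the alternatives, the exception being Ptch1 in BLT2KO_punched against BLT2KO, whose log2 ratio was 0.01 with the mean of all probes. A bound on the wrong side of 0 was left out, except with no filter or floor. In the other settings a bound could therefore not change sign. This left Shh with values in 6 of 8 settings for WT_punched against WT, and Fgf5 in 7 of 8 for BLT2KO against WT. List medians kept their sign in 625 of 672. Counts of members past 2-fold moved more. For BLT2KO against WT, 2 members became 0 without background correction, 0 in the deposited processed values, 0 with an offset of 50 and 1 with the mean of all probes. For BLT2KO_punched against WT_punched, 3 became 1 without background correction, 1 in the processed values, 2 with an offset of 50 and 2 with the mean of all probes. For WT_punched against WT, 2 became 1 without background correction, 0 under median scaling, 1 in the processed values and 1 with an offset of 50. The 1 member with a wound difference past 2-fold, Dlx3, became 0 without background correction and 0 in the processed values, where the difference was at least 0.98. Median scaling also took the lists with a median above 0 in WT_punched against WT to 16, against 7 of 21, and shifted all genes by 0.25 there, 0.17 in BLT2KO_punched against BLT2KO and 0.12 in BLT2KO against WT. Genes higher and lower by 2-fold then numbered 399 and 85 for WT_punched against WT (201 and 154 as reported), 449 and 107 for BLT2KO_punched against BLT2KO (328 and 181) and 131 and 82 for BLT2KO against WT (111 and 120). For BLT2KO_punched against BLT2KO they numbered 220 and 48 in the processed values and 172 and 46 without background correction. Normalizing only the 2 arrays compared was chosen after seeing the data. The causes were not tested. Signal near background limits Shh, Hoxc13 and Fgf5, and leaves Gli1, Lef1, Msx2 and Foxn1 without a ratio. No paired analysis was possible because each group had 1 array.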

Other observations

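Adipocyte markers were lower in BLT2KO_punched than in WT_punched skin, with 7 of 9 measured genes at least 2-fold lower (median log2 ratio -1.25), against 0.541% of all genes. None of 8 was 2-fold apart between BLT2KO and WT, where 2.26% of all genes were. Neutrophil markers were lower in BLT2KO than in WT skin, with 7 of 10 measured genes at least 2-fold lower (median -1.73), against 1.17% of all genes. None of 10 was 2-fold apart in punched skin (median -0.13), where 1.62% of all genes were. Macrophage markers had medians of -0.32 in unwounded and -0.19 in punched skin for BLT2KO against WT. Each value compares 1 pool of mice with 1 other.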
